A study of Mus musculus with 16 samples.

Results

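Magnesium enters, leaves and is shared between compartments of heart muscle cells through membrane proteins of several families, and 7 genes for such proteins were listed here: Slc41a1, Slc41a3, Trpm7, Cnnm2, Cnnm3, Mrs2 and Magt1. The list was chosen by measured values of these arrays, because Slc41a3 stood out among them for its pattern over the groups, so the levels and changes of Slc41a3 are given as a description and carry no test. All probes that the annotation of the array gives to a listed gene were taken. They were 9 probes of 6 of the 7 genes, out of 25697 probes and 16593 named genes on the array, and Slc41a1 was not analysed here. Of these 9 probes, 5 probes of 3 genes (Slc41a3, Cnnm2 and Cnnm3) passed the filter on low signal that is described below, against 8831 of all named genes.

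Left ventricles of 16 male mice aged 12 weeks were profiled on BeadChip arrays (Illumina MouseRef-8 v2.0), on which each heart had an array of its own and each of 4 groups had 4 mice. The groups were castrated (CX) C57.YA, sham-operated C57.YA, CX C57BL/6J and sham-operated C57BL/6J mice. C57.YA is a consomic strain, which has the chromosome Y (chrY) of A/J mice on the C57BL/6J background, so that strain differences between groups here are those between a chrY from A/J and a chrY from C57BL/6J. Surgery was done before puberty, so the CX mice went through puberty without testicular hormones, and all hearts were taken in the same part of the morning. Bulk tissue was measured, so fewer cells of a type and less RNA in each cell cannot be told apart.

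Magnesium is bound to nearly all ATP of the cell and is a cofactor of the ATPases that drive contraction and relaxation of the heart. TRPM7 is an ion channel fused to a kinase that lets magnesium and calcium into the cell. The SLC41 proteins are related to the MgtE magnesium channels of bacteria, and SLC41A1 exchanges magnesium for sodium at the cell surface in human cells. CNNM2 and CNNM3 belong to the cyclin M family, in which CNNM2 mutations cause hypomagnesaemia in humans and CNNM3 binds the phosphatases of the PTP4A family. MRS2 is the magnesium channel of the inner mitochondrial membrane. MAGT1 takes part both in magnesium transport and in the glycosylation of proteins, and its loss causes an immune deficiency in humans.

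Because Slc41a3 was compared with the clock gene Arntl, the promoters were read for the DNA sequence that the ARNTL (BMAL1) and CLOCK proteins bind together, the E-box CACGTG, which reads the same on both strands. Promoters from RefSeq (GRCm38.p6) were at hand for 6 of the 7 genes, as 250 bases before to 50 bases after an annotated start. The window of Slc41a3 lies around a start that is annotated inside the gene, which spans chr6:90604730-90646412 on GRCm38.p6. The 250 bases before that start (chr6:90618996-90619245, plus strand) held 1 E-box, shown in capitals.
Slc41a3: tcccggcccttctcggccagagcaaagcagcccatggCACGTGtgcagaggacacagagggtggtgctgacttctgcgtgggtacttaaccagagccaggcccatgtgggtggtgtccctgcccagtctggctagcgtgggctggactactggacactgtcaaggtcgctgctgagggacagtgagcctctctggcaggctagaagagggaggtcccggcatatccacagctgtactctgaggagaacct
The E-box of Slc41a3 begins 213 bases before the annotated start. Trpm7 (2 matches) and Magt1 (1 match) also held an E-box, which is shown in capitals with 12 bases on either side for the match nearest before the start of each gene (chr2:126876269-126876298 and chrX:106011882-106011911, both minus strand).
Trpm7: aagcgcgcccttCACGTGacacgccctccg
Magt1: tgagcgtgaggtCACGTGaggggtcgagcg
No CACGTG was found in the windows of Slc41a1, Cnnm2 and Cnnm3. The window of Cnnm2, like that of Slc41a3, lies around a start annotated inside the gene (chr19:46761609). The beginning of the Cnnm2 gene (chr19:46756834) was thus not searched. In all, 7.15% of the 32851 promoter windows of 300 bases held CACGTG, and 6.02% did so within the 250 bases before the start. The D-box TTANGTAA (2.32% of all windows) and the Rev-erb/ROR element, read as AA, any base, then TAGGTCA (0.219%), which the factors DBP and TEF and the factors NR1D1 and RORA bind, were searched on both strands and were in none of the 6 windows.

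The labelled tissue was checked against defining markers. Markers of ventricular cardiomyocytes had a mean log2 signal of 13.91 to 14.15 on every array, for 4 of the 5 listed genes with a named probe. Among them only Irx4 passed a test. It was lower in CX than in sham C57.YA hearts (-0.33 ± 0.08, adjusted p = 0.00744, limma). Irx4 was also lower in CX C57.YA than in CX C57BL/6J hearts (-0.21 ± 0.08, adjusted p = 0.0652, limma). The 4 atrial genes Myl4, Myl7, Sln and Mybphl had a mean log2 signal of 9.23 to 11.16 on the 4 CX C57BL/6J arrays, against 6.99 to 7.65 on the other 12 arrays, so the CX C57BL/6J hearts stood apart from the rest in this respect. Of the 2 macrophage markers tested, F13a1 was lower in CX than in sham C57BL/6J hearts (-0.86 ± 0.17, adjusted p = 0.00485, limma). The 3 smooth muscle markers were lower in CX than in sham C57.YA hearts (mean log2 signal 9.59 to 9.98 against 10.09 to 10.54), and all 3 passed the test of that comparison. In C57BL/6J they had 9.51 to 9.91 in CX against 9.97 to 10.33 in sham hearts, and 1 of the 3, Myh11, passed (-0.92 ± 0.10, adjusted p = 1.98e-05, limma). The 2 mesothelial markers tested were lower in CX than in sham C57.YA hearts (7.74 to 7.89 against 8.37 to 8.75), and both passed. Neither passed between CX and sham C57BL/6J hearts. Between 11435 and 12212 probes were detected on each array.

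The level of Slc41a3 was about 3-fold lower in CX C57.YA hearts than in sham C57.YA hearts on each of its 3 probes, and sham C57.YA hearts had the highest level of the 4 groups. The probes are numbered by their mean signal, as the first (ILMN_3154553), the second (ILMN_2647533) and the third (ILMN_3075513). The first and the third are annotated to one transcript of the gene and the second to another. Signals are given on a log2 scale after quantile normalization, a step that gives every array the same distribution, so a difference of 1 is a doubling. A probe counts as detected on an array where its detection p, which sets it against the negative control beads of that array, was at most 0.04. All 3 probes were detected on 16 of 16 arrays.

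On the first probe, the 4 CX C57.YA hearts had log2 signals of 9.79, 9.60, 10.17 and 10.10, and the 4 sham C57.YA hearts had 11.17, 11.44, 11.38 and 11.58. In C57BL/6J mice the CX hearts had 10.10, 10.21, 9.83 and 10.20, against 10.43, 10.36, 10.40 and 10.75 in sham hearts. Every sham C57.YA heart was above every other heart, and within each strain the CX and sham groups did not overlap, although the gap was wide in C57.YA and narrow in C57BL/6J. Between the strains, the CX groups overlapped.

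On the second probe, CX C57.YA hearts had 9.21, 9.15, 9.66 and 9.68, whereas sham C57.YA hearts had 10.92, 11.15, 10.998 and 11.09. In C57BL/6J mice it gave 9.76, 10.21, 9.82 and 10.11 in CX hearts, against 10.14, 10.03, 10.09 and 10.59 in sham hearts. Here the CX and sham groups overlapped in C57BL/6J, and the CX C57.YA hearts lay below every CX C57BL/6J heart.

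The third and dimmest probe had 7.63, 7.50, 7.94 and 7.57 in CX C57.YA hearts and 9.26, 9.44, 8.80 and 9.12 in sham C57.YA hearts. In CX C57BL/6J hearts it had 8.11, 8.52, 8.17 and 8.13, against 8.22, 8.15, 8.38 and 8.73 in sham C57BL/6J hearts. The order of groups was the same as on the other probes, with sham C57.YA highest, then sham C57BL/6J, CX C57BL/6J and CX C57.YA. The neighbours CX and sham C57BL/6J overlapped on the second and the third probes, and the neighbours CX C57.YA and CX C57BL/6J on the first, so those steps did not exceed the spread between mice on every probe.

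**Figure D1:**
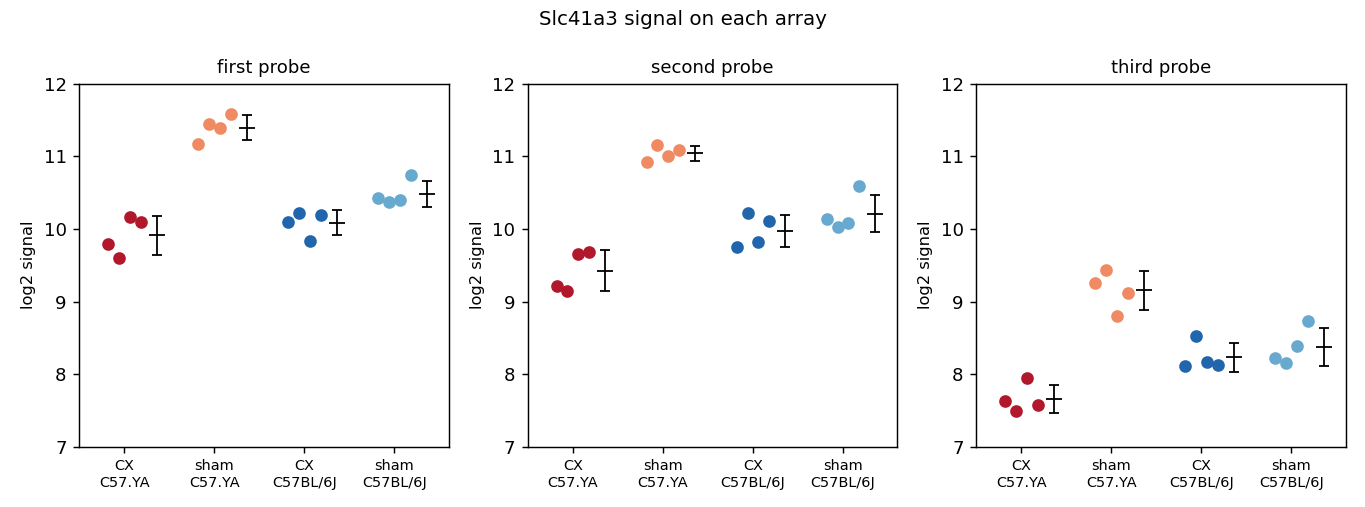
Log2 signal (y axis) of the 3 Slc41a3 probes on each of 16 arrays (points) in the 4 groups (x axis), with the mean and SD of each group of 4 mice in black. The 4 sham C57.YA hearts lie highest on every probe, between 11.17 and 11.58 on the first, and the CX C57.YA hearts lie lowest on the second and the third.

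The size of these differences was taken from one limma model with a mean for each group, over all 16 arrays. In C57.YA mice, CX hearts had a log2 difference from sham hearts of -1.48 ± 0.12 on the first probe, -1.61 ± 0.14 on the second and -1.49 ± 0.14 on the third (± SE, 4 mice in each group), which are 2.79-fold, 3.06-fold and 2.82-fold lower levels. Among the 12764 probes that passed the filter, 13, 8 and 11 probes had a more negative difference than the first, the second and the third probe. So the decrease of Slc41a3 in castrated C57.YA mice was among the largest decreases on the array, which is what chose the gene. The smooth muscle and mesothelial markers and the ventricular marker Irx4 were lower in the same CX C57.YA hearts, and their part in this difference was not tested.

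In C57BL/6J mice the differences between CX and sham hearts were -0.40 (95% interval -0.66 to -0.14), -0.24 (-0.52 to 0.05) and -0.14 (-0.43 to 0.16) on the 3 probes. All 3 were negative and smaller than in C57.YA. The castration difference in C57.YA minus that in C57BL/6J came to -1.08 ± 0.18, -1.38 ± 0.19 and -1.36 ± 0.20 (± SE).

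Sham C57.YA hearts had more Slc41a3 signal than sham C57BL/6J hearts, with log2 differences of 0.91 ± 0.12, 0.83 ± 0.14 and 0.78 ± 0.14. These share the sham C57.YA hearts with the castration differences in C57.YA. Among CX hearts the strain difference ran the other way, at -0.17 ± 0.12, -0.55 ± 0.14 and -0.57 ± 0.14 for C57.YA minus C57BL/6J. The CX groups overlapped on the first probe (95% interval -0.43 to 0.09) and did not overlap on the second (-0.84 to -0.26) and the third (-0.87 to -0.28).

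The atrial genes were high in the same CX C57BL/6J hearts that enter the castration comparison in C57BL/6J and the strain comparison among CX hearts. With the mean signal of the atrial genes as a covariate, the castration difference in C57BL/6J became -0.58 on the first probe, -0.47 on the second and -0.73 on the third. The strain difference among CX hearts became 0.0037, -0.33 and -0.02, whereas the castration difference in C57.YA stayed at -1.49, -1.63 and -1.53. This covariate nearly marks the CX C57BL/6J group (9.23 to 11.16, against 6.99 to 7.65 on the other arrays). In comparisons with that group the covariate and the group can hardly be told apart. Within C57.YA it varied little, so it could hardly move that difference. The atrial genes passed the test between CX and sham hearts in C57BL/6J only (4 of 4 genes). Their part in the values of Slc41a3 was not tested, nor was that of the macrophage, smooth muscle, endothelial and mesothelial markers.

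The 3 probes followed each other over the arrays. As a description over 12 arrays without sham C57.YA, Pearson's r was 0.90 between the first and second probe, 0.78 between the first and the third and 0.92 between the second and the third. After the mean of each group was subtracted on all 16 arrays, r was 0.88, 0.47 and 0.64 for these pairs. The third probe, whose signal was lowest and whose standard error over beads was 4.98% to 9.98% of the signal, followed the first probe least within groups.

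Cnnm2 was the other transporter with a clear signal in every heart, and it was lower in CX C57.YA hearts. Its single probe was detected on 16 of 16 arrays (gene at chr19:46756834-46878580, GRCm38.p6). Cnnm2 had log2 signals of 8.25, 8.32, 8.43 and 8.39 in CX C57.YA hearts, against 8.66, 8.72, 8.74 and 8.67 in sham C57.YA hearts. Among C57BL/6J mice the CX hearts had 8.60, 8.65, 8.45 and 8.56 and the sham hearts 8.69, 8.65, 8.82 and 8.65. The CX C57.YA hearts were below all other hearts, though the highest of them (8.43) was close to the lowest CX C57BL/6J heart (8.45). The CX C57BL/6J mean (8.56) lay between that of CX C57.YA (8.35) and those of the sham groups (8.70 in each strain).

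For the genes other than Slc41a3 the changes were tested in the same limma model, with p adjusted by the Benjamini-Hochberg method over all 12764 probes, and a gene was called where the adjusted p was below 0.1. A probe entered the model when 1 or more groups had it detected in 2 or more of their 4 hearts. Cnnm2 fell by 0.35 on the log2 scale in CX against sham C57.YA hearts (SE 0.07, 1.27-fold, adjusted p = 0.00147), with no overlap between the 4 CX and the 4 sham hearts. In this comparison 19.7% of all probes tested passed the threshold, and 19.5% had groups that did not overlap.

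Between CX and sham C57BL/6J hearts, Cnnm2 had a log2 difference of -0.14 (adjusted p = 0.247, limma), which did not pass. Of all probes, 8.81% passed in that comparison. Groups did not overlap for 12.2% of all probes, and for 1 of the 5 transporter probes, the first of Slc41a3. The castration difference of Cnnm2 in C57.YA minus that in C57BL/6J was -0.21 ± 0.09 (adjusted p = 0.290, limma), so a difference between the strains was not shown for Cnnm2. Of all probes, 2.88% passed this interaction.

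Between strains, Cnnm2 was lower in CX C57.YA than in CX C57BL/6J hearts, with a log2 difference of -0.21 ± 0.07 (adjusted p = 0.0337, limma) and no overlap. In this comparison 23.4% of all probes passed and 21.3% did not overlap. Sham hearts of the strains had nearly the same Cnnm2 signal, with a difference of -0.0035 (95% interval -0.14 to 0.13, adjusted p = 0.986, limma). There 4.29% of all probes passed and 9.12% did not overlap, among them the 3 probes of Slc41a3.

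With arrays scaled to a common median in place of quantile normalization, the Cnnm2 differences were -0.24 for castration in C57.YA (adjusted p = 0.112) and -0.22 for strain among CX hearts (adjusted p = 0.137, limma). Neither passed the threshold there, and 13.2% of all probes passed for castration in C57.YA and 16.4% for strain among CX hearts. The strain difference was -0.11 with the atrial genes as a covariate (adjusted p = 0.864), a setting in which 0% of all probes passed that comparison, and -0.18 without the first CX C57.YA heart (adjusted p = 0.102).

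**Figure D2:**
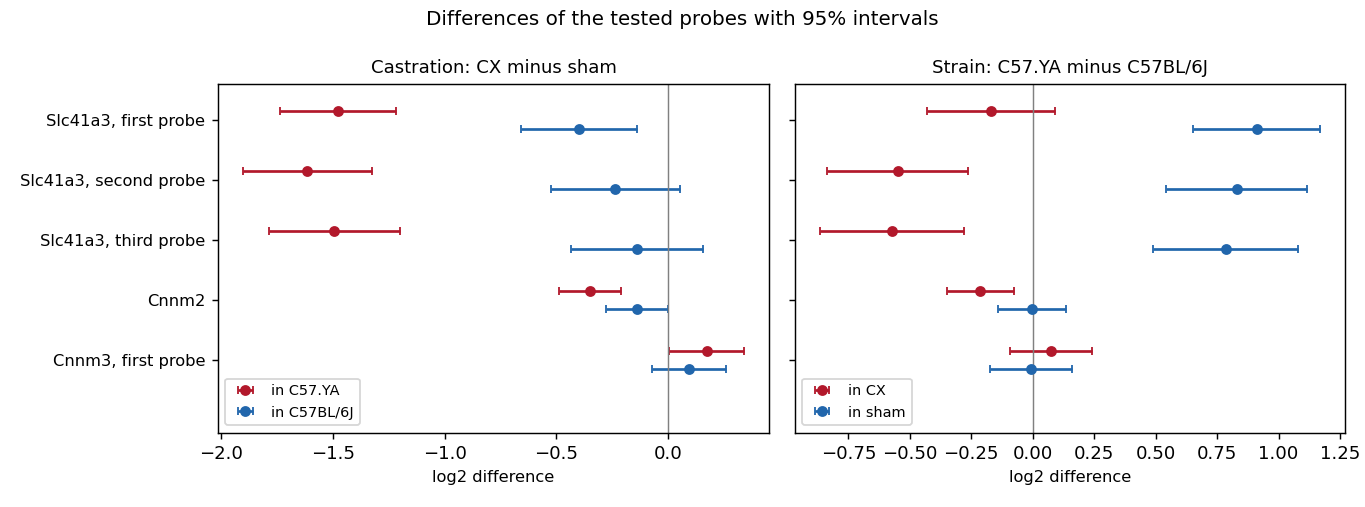
Log2 difference (x axis, with 95% intervals from the limma model, 4 mice in each group) of the 5 transporter probes that passed the signal filter (y axis), for CX minus sham within each strain (left) and C57.YA minus C57BL/6J within CX or sham hearts (right). The castration differences of the 3 Slc41a3 probes in C57.YA lie between -1.61 and -1.48, and that of Cnnm2 at -0.35.

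The remaining transporters were at or near background in these hearts on this array. Cnnm3 (chr1:36511867-36528237) has 2 probes, and its first probe was detected on 2 of 16 arrays, both CX C57.YA. It passed the filter only through that group, with log2 signals of 6.69, 6.97, 6.85 and 7.03 in CX C57.YA hearts against 6.71, 6.73, 6.85 and 6.55 in sham C57.YA hearts. These groups overlapped, and no test is given, because the group that brought the probe through the filter is one of those compared. In C57BL/6J hearts the probe lay between 6.76 and 6.88 in CX hearts and between 6.60 and 6.79 in sham hearts. The second probe of Cnnm3 was detected on 0 of 16 arrays, with log2 signals between 6.00 and 6.49.

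Mrs2 (chr13:24987483-25020363) was detected on 1 of 16 arrays, a sham C57.YA heart. It had log2 signals of 6.92, 6.65, 6.52 and 6.83 in CX C57.YA hearts and 6.53, 6.68, 6.90 and 7.10 in sham C57.YA hearts. In C57BL/6J it ranged between 6.27 and 6.64 in CX hearts and between 6.47 and 6.79 in sham hearts. So the mitochondrial channel gave no level that could be compared between groups.

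Trpm7 (chr2:126791558-126876261) and Magt1 (chrX:105968084-106011802) were detected on 0 of 16 arrays. Their log2 signals lay between 5.87 and 6.36 for Trpm7 and between 6.29 and 6.83 for Magt1. Neither was well above background on any array, which gives an upper limit to the signal of these probes and does not show that the genes are silent. The detection threshold divided close values. The detection p of Cnnm3 was 0.0263 and 0.0276 and that of Mrs2 was 0.0175 where they were detected, whereas on the nearest arrays beyond the threshold it was 0.0451 and 0.0464 for Mrs2 and 0.0526 for Cnnm3.

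**Figure D3:**
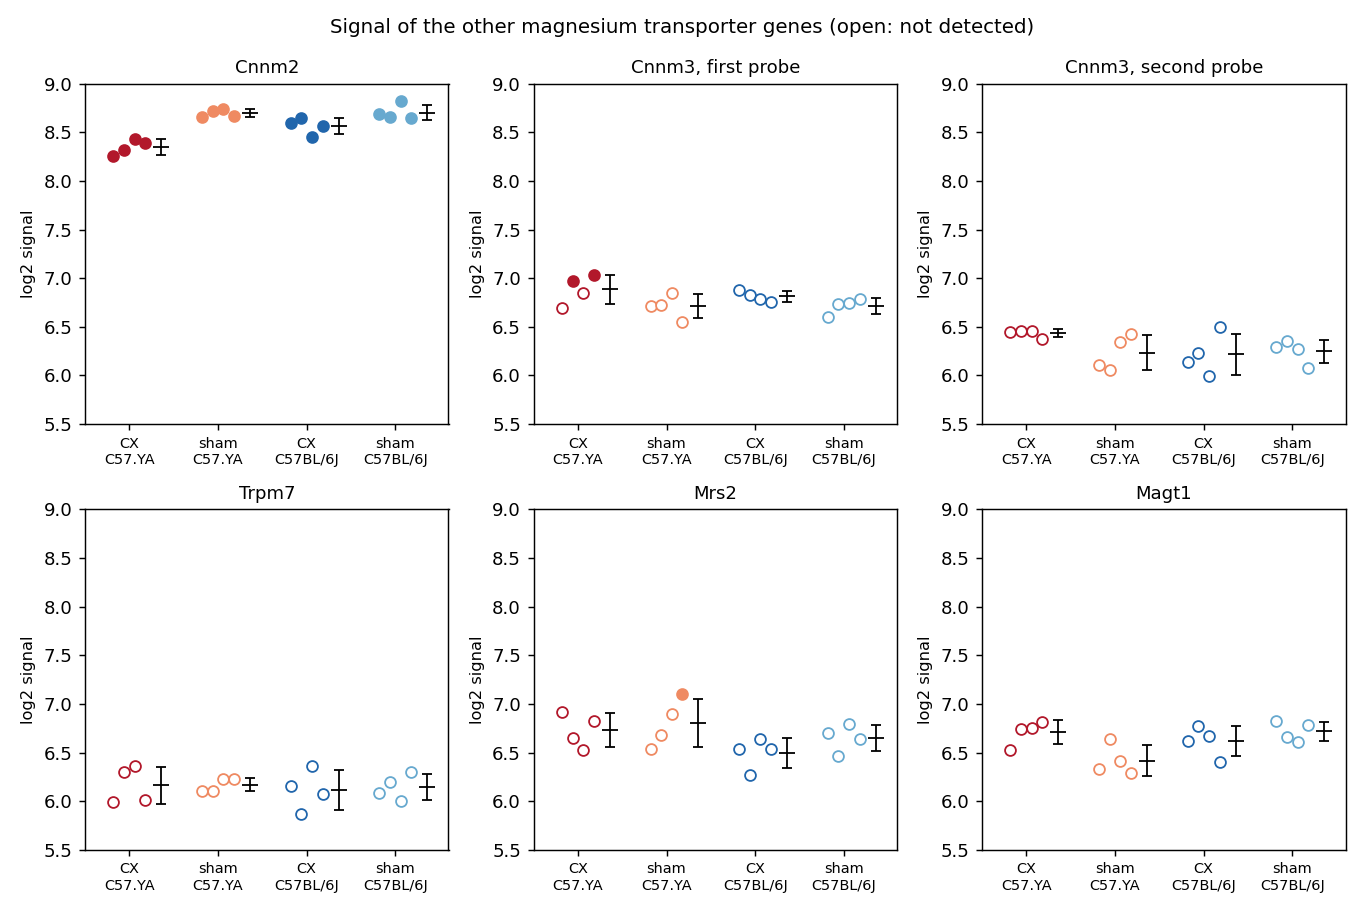
Log2 signal (y axis) of the 6 probes of Cnnm2, Cnnm3, Trpm7, Mrs2 and Magt1 on 16 arrays (points; open where the probe was not detected) in the 4 groups (x axis), with the mean and SD of each group of 4 mice in black. Cnnm2 is detected on every array and lowest in CX C57.YA, and the other probes are open on nearly all arrays.

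A wider list of 31 genes of magnesium transport and its regulation was read in the same way, of which 24 had a named probe and 16 were tested. Between CX and sham C57.YA hearts 2 of the 16 passed the test. Egf, a growth factor that raises magnesium uptake by the kidney, was higher by 0.37 ± 0.12 (adjusted p = 0.0568), and its receptor Egfr was lower by 0.46 on the log2 scale (difference -0.46 ± 0.11, adjusted p = 0.0068, limma). The median difference of the 16 genes was -0.02, beside -0.0004 over all probes tested.

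Egf and Egfr also differed between sham C57.YA and sham C57BL/6J hearts, by -0.44 (adjusted p = 0.0738) and 0.52 (adjusted p = 0.0118, limma), and they were the 2 of 16 genes that passed there. Both comparisons share the sham C57.YA hearts. In C57BL/6J, the 2 of 16 genes that passed between CX and sham hearts were Mmgt2, which encodes a membrane magnesium transporter, at 0.20 (adjusted p = 0.0906), and Pcbd1, a cofactor of HNF1 transcription factors, at 0.27 (adjusted p = 0.0758, limma). Pcbd1 was detected on 1 of the 4 sham C57BL/6J arrays.

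Among CX hearts, 3 of 16 genes passed the test, all lower in C57.YA than in C57BL/6J. Zdhhc13 and Zdhhc17, of a family of palmitoyltransferases, had differences of -0.23 (adjusted p = 0.0459) and -0.46 (adjusted p = 0.00556, limma). Cldn16, the claudin of paracellular magnesium transport in the kidney, was not well above background on any CX C57.YA array and was at least 1.29-fold lower there than in CX C57BL/6J hearts (adjusted p = 0.0395, limma). The bound sets the mean of the CX C57BL/6J hearts against the lowest signal above background on each CX C57.YA array, or the probe's own signal where that was higher. The interaction called 0 of the 16 genes with limma, of which 3 had an unadjusted p under 0.05. The share of the wider list called was 12.5% for castration in C57.YA, 12.5% for castration in C57BL/6J, 12.5% for strain among sham hearts and 18.8% for strain among CX hearts, beside 19.7%, 8.81%, 4.29% and 23.4% of all probes.

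Arntl (BMAL1) was the clock gene that Slc41a3 was set beside. ARNTL pairs with CLOCK to switch on genes with an E-box, among them those of the PER and CRY proteins, which then hold the pair back, and this loop runs in the cells of the heart. Arntl had log2 signals of 6.64, 6.73, 7.18 and 6.85 in CX C57.YA hearts, against 9.26, 9.41, 9.24 and 9.06 in sham C57.YA hearts. The CX C57BL/6J hearts had 6.82, 6.90, 6.71 and 7.04, and the sham C57BL/6J hearts 6.84, 7.22, 6.91 and 7.03.

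Arntl was thus high in the 4 sham C57.YA hearts and low in the other 12, where it was detected on only 1 of 4 CX C57.YA, 1 of 4 CX C57BL/6J and 2 of 4 sham C57BL/6J arrays. Its log2 difference between CX and sham C57.YA hearts was -2.39 ± 0.11 on the signals as measured, and between CX and sham C57BL/6J hearts -0.13 ± 0.11 (± SE). Arntl was set beside Slc41a3 with these levels known, so they are a description and carry no test. Both genes shared the high level in sham C57.YA hearts. Slc41a3, unlike Arntl, was detected in every heart of the other groups, where the means of its first probe were 9.91 in CX C57.YA, 10.08 in CX C57BL/6J and 10.48 in sham C57BL/6J hearts.

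Since the arrays fall into these 2 separate sets, no r over all 16 arrays is given for this pair. Over the 12 arrays without sham C57.YA, r with Arntl was 0.64 (Spearman's rho 0.65) for the first probe of Slc41a3, 0.52 (rho 0.42) for the second and 0.39 (rho 0.31) for the third. After the mean of each group was subtracted on the 16 arrays, r was 0.42, 0.46 and 0.34. These values are descriptions over arrays on most of which Arntl was near background, and over the 12 arrays they were lower on the second and the third probe than on the first.

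**Figure D4:**
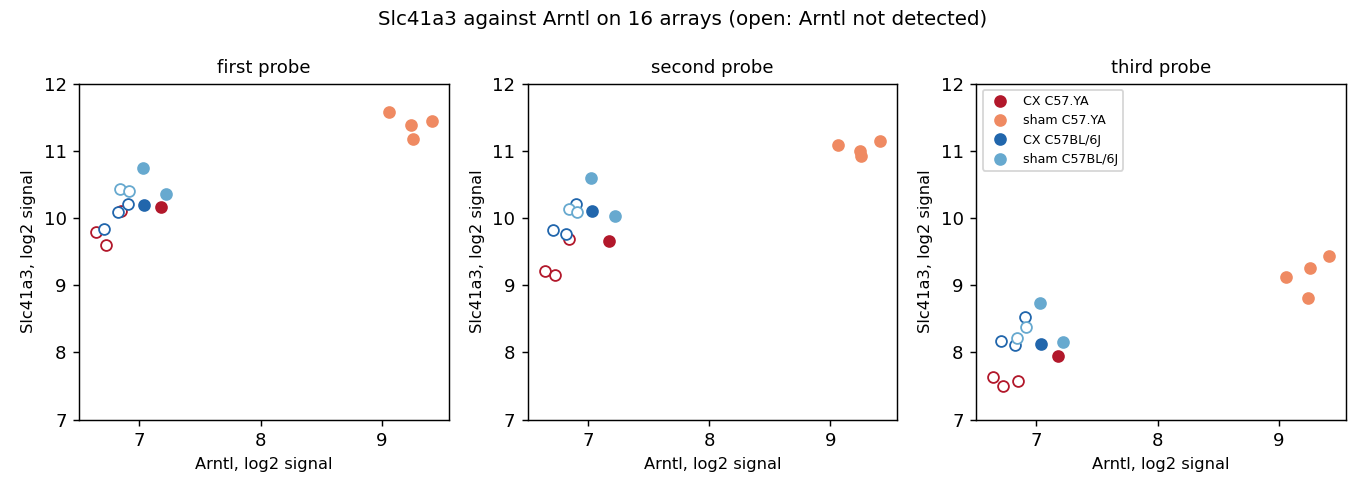
Log2 signal of each Slc41a3 probe (y axis) against that of Arntl (x axis) on 16 arrays (points; open where Arntl was not detected), coloured by group. The sham C57.YA hearts, with Arntl between 9.06 and 9.41, stand apart from the other 12, where Arntl lies between 6.64 and 7.22 while the first Slc41a3 probe ranges between 9.60 and 10.75.

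Other clock genes were ordered beside Slc41a3 by their likeness to its first probe, as Pearson's r over 16 arrays among 8830 named genes, a measure in which the 4 sham C57.YA arrays weigh heavily. Clock was the 4th most alike (r = 0.95). Nfil3, a repressor at D-boxes, was the 110th (r = 0.81) and Nr1d1, which represses Arntl, the 334th (r = 0.71). At the other end of the order were Nr1d2 (r = -0.90), Per2 (r = -0.89), Tef (r = -0.87), Per3 (r = -0.85) and Dbp (r = -0.85). Over the 12 arrays without sham C57.YA, r was 0.82 for Clock, 0.41 for Nfil3, 0.78 for Nr1d1, -0.50 for Nr1d2 and -0.55 for Per2. In the same 12 arrays Tef (0.05), Per3 (-0.07) and Dbp (0.22) were no longer opposed to Slc41a3. Their r over 16 arrays thus depended on including the sham C57.YA hearts. After the group means were subtracted on the 16 arrays, r was -0.21 for Tef, -0.70 for Per3 and -0.32 for Dbp. Per3 was detected on 0 of the 4 sham C57.YA arrays.

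Of the 14 clock genes tested, 13 passed between CX and sham C57.YA hearts, 9 higher and 4 lower, where 19.7% of all probes passed. The list includes Arntl and was chosen with earlier results known, so its counts and adjusted p describe these arrays and are no independent test. Clock was lower (-0.70 ± 0.07, adjusted p = 2.76e-06), as were Nfil3 (-0.61 ± 0.10) and Nr1d1 (-0.47 ± 0.09). Dbp was higher (1.56 ± 0.12, adjusted p = 2.18e-07), as were Per2 (1.56 ± 0.13) and Tef (1.11 ± 0.09, limma). Between CX and sham C57BL/6J hearts 1 of 14 passed, beside 8.81% of all probes, namely Nr1d1 (-0.45 ± 0.09, adjusted p = 0.00813, limma). The interaction called 11 of the 14, beside 2.88% of all probes.

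The 10 named genes whose pattern over the 16 arrays was most like that of the first Slc41a3 probe were led by Cdkn1a, the cell cycle inhibitor p21 (r = 0.97), and Fkbp5, a co-chaperone of steroid receptors (r = 0.96). They were followed by Miga2 (0.95), Clock (0.95), Tnfaip2 (0.93), Eepd1 (0.93), Gngt2 (0.92), Whrn (0.92), Abra (0.92) and Stk24 (0.92). The most opposite were Gadd45a, a growth arrest and DNA damage gene (r = -0.95), Ppat, an enzyme of purine synthesis (-0.94), Bmp4, a ligand of the TGF-beta family (-0.94), Rit1 (-0.93) and Nrep (-0.93).

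Cdkn1a had a log2 difference of -2.46 between CX and sham C57.YA hearts and -0.30 between CX and sham C57BL/6J hearts, beside -1.48 and -0.40 for Slc41a3. For Fkbp5, detected on 14 of 16 arrays, these differences were -1.33 and -0.60, and for Gadd45a they were 1.05 and 0.50. Of the 10 most alike genes, 3 were also among the 10 most alike to the second probe and 2 among those of the third, so the list rests largely on the probe. Tnfaip2 was as close to the other probes (r = 0.97 and 0.94) as to the first.

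Within groups the genes at the 2 ends of the order were others. They are the extremes picked from 8830 named genes, and whether their r exceeds what chance gives was not tested. After the group means were subtracted, the highest r with the first probe were those of Arfip2 (0.83), Dnajc5 (0.83), Pip5k1a (0.82), Pgp (0.80) and Cux1 (0.79), and the lowest those of Ankmy2 (-0.89), Naip2 (-0.86), Nts (-0.84), Fgf7 (-0.84) and Tulp4 (-0.84). With the third probe the same genes had r between 0.19 and 0.65 and between -0.45 and -0.31, and neither set of 5 shared a gene with the set of the third probe.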

How the data were processed

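For every probe and array the authors deposited an intensity (average bead signal, not normalized), a detection p-value, the standard error over beads and the number of beads (9 to 146 beads, median 38). A second table deposited by the authors holds quantile-normalized log2 values, whose probe names matched those of the intensities for 1 of 25697 lines. That table was paired by its values (largest difference 5.43e-06) and used as an alternative only. Every gene name rests on the names of the intensities, with which the 3 Slc41a3 probes had r of 0.91 to 0.96 with each other and 4 ventricular markers had mean log2 signals of 8.79 to 15.9. With the names of the log2 table these were -0.87 to -0.04 and 6.27 to 8.90. Intensities were put on a log2 scale with no background subtraction or pseudocount and quantile-normalized. Probes were named through the platform annotation (23978 in the table, 23962 updated by Entrez number to RefSeq, GRCm38.p6, 1719 without a name). Where a gene has several tested probes, the one with the highest mean signal stands for it.

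One model with 4 group means was fitted with limma 3.58.1 in R 4.3.3 (12 residual degrees of freedom) and tested on simulated data. The members and gene lists were chosen with earlier results of these data known. Named are all probes of the listed genes, Arntl, genes of the wider magnesium and clock lists that passed the test or were ranked, and the genes most and least like Slc41a3. Each mouse is a separate animal. The number of arrays limits the precision. Alternatives were neqc background correction, the authors' log2 table, median scaling, other filters and thresholds, ordinary variance, array weights, a replicate block, an atrial covariate, fits to the 8 arrays compared, and arrays left out. The BeadChip of each array is not given in the sources used here, so a block for it was not run.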

Additional observations from a re-analysis of the deposited data

Results flagged for a closer look

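In a group of 4 arrays, a value was marked when its gap to the nearest of the others, divided by the range of the group, was over Dixon's 95% critical value for 4 samples. This marked 3 of the 40 groups of member and Arntl values that were checked, where chance marks about 5%. On the first Slc41a3 probe, the fourth sham C57BL/6J heart had a log2 signal of 10.75, above the 10.36 to 10.43 of the other sham C57BL/6J hearts. On the third Slc41a3 probe, the second CX C57BL/6J heart had 8.52, above 8.11 to 8.17 in the other CX C57BL/6J hearts. On the second Cnnm3 probe, which was not detected on any array, the fourth CX C57.YA heart had 6.38, below 6.45 to 6.46 in the others.

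The castration difference differed between the strains, C57.YA minus C57BL/6J, for Clock, from the list chosen with earlier results known (-0.56 ± 0.10, adjusted p = 0.00482, limma). It also differed for the 4 atrial genes, with a median of -2.83, and all 4 passed the interaction test.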

How the results depend on the processing

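Slc41a3 kept its direction for castration in C57.YA under all alternatives and with each array left out in turn (log2 difference on the first probe -1.56 to -1.38 with 1 array left out). Over the other alternatives this difference was -1.57 to -1.39 on the first probe, -1.72 to -1.52 on the second and -1.89 to -1.30 on the third. The interaction on the third probe ran from -1.72 to -0.80, the last with the atrial covariate. Among the other members, the count of genes called for castration in C57.YA was 1 (19.7% of all probes) and became 0 with median scaling (13.2%) and 2 with no detection filter (8.26%), where Magt1, which was detected on 0 arrays, was added. With 1 array left out it ranged between 1 and 2, where Cnnm3 was added without the first CX C57.YA or the third sham C57.YA heart. Cnnm3 passed the filter only through the CX C57.YA group, and nothing is read from its call. The count for strain among CX hearts was 1 (23.4%) and became 0 with median scaling (16.4%) and 0 with the atrial covariate (0%), and ranged between 0 and 1 with 1 array left out. The count for strain among sham hearts was 0 (4.29%) and became 1 (16.1%), Mrs2, without the first and second sham C57.YA hearts together. Mrs2 then entered only through the remaining sham C57.YA hearts, where it was detected on 1 array, and nothing is read from its call. The r of Slc41a3 with Arntl was 0.42 after subtracting group means and 0.64 without the sham C57.YA arrays, a setting chosen after seeing the data. Over the alternatives and arrays left out, the wider magnesium list had 1 to 4 genes called for castration in C57.YA, 0 to 2 in C57BL/6J, 0 to 4 for strain among sham hearts, 0 to 3 among CX hearts and 0 to 2 for the interaction. Under median scaling the median of all probes moved by at most 0.06. The labels do not say that a replicate number marks a shared source, and a pairing was not established. Same-numbered deviations had mean correlations of 0.04 to 0.12, beside -0.02 for other numbers, but single pairs went down to -0.09, and 7 of 16 arrays were closest to their own number. With the replicate block, 1 other member was called for castration in C57.YA (Cnnm2, adjusted p = 0.00307), and 1 for strain among CX hearts (adjusted p = 0.0425), and no call of a member changed. The cause of these shifts was not tested. Signal over background limits Trpm7, Magt1, Mrs2 and Cnnm3, and Arntl outside sham C57.YA.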
